A study of Bos taurus with 6 samples.

Results

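Chromosome 18 of cattle held more H3K4me3 peaks per Mb than nearly all of the 29 autosomes in each of 3 lists of peaks from bovine blastocysts. All peaks on that chromosome were taken, with no further filter: 1315 of 22404 peaks in the list of replicate 1, 1111 of 19076 in that of replicate 2 and 1323 of 22060 in that of replicate 3. These 3749 peaks of 63540 made up 5.87%, 5.82% and 5.997% of the lists. The chromosome was singled out because of its peak density in the same lists, so its counts, densities, gaps and clusters are described here without a test.

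The blastocysts were produced in vitro by IVF, cultured in mSOF medium with bovine serum albumin under 5% oxygen and collected on day 8, 192 h after IVF, as pools of approximately 11 unsexed embryos per replicate. The labels give no genotype or strain and no treatment that differed between the 3 pools, and some of them came from the same IVF procedure. The ovaries were bought from an abattoir, and blastocysts of early, expanded, hatching and hatched stages were mixed. In ChIP-seq, sheared chromatin is pulled down with an antibody, here 3 µg against H3K4me3, and the recovered DNA is sequenced. Each pool also gave an input library of its own, sequenced without the pull-down, which entered only through the peak calling. A pool mixes the cells of the inner cell mass and the trophectoderm, so that a peak cannot be assigned to either of them.

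H3K4me3 is the trimethylation of lysine 4 of histone H3. It is deposited by the SET1 and MLL methyltransferase complexes and is found mainly at the start sites of active genes and at promoters rich in CpG dinucleotides, so that the spacing of its peaks along a chromosome usually follows that of the genes. Wide peaks, often called broad domains, are known for marking genes of cell identity. In the RefSeq order of the ARS-UCD2.0 assembly, cattle chromosome 18 carries FOXC2, a forkhead factor of mesoderm, MC1R, the melanocortin receptor of coat colour, and SALL1 and IRX3, zinc finger and homeobox factors of organ development. CTCF, the insulator-binding protein, CDH1, the adhesion protein E-cadherin of epithelia including the trophectoderm, CEBPA, a factor of fat and liver cells, APOE, a lipid carrier, and the imprinted gene PEG3 follow on it in that order. The peaks are placed on another assembly, UMD 3.1.1, and gene models of that assembly were not used here, so no peak was tied to a gene.

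Peaks were spread unevenly along chromosome 18. The end of its last peak in any replicate, at 65994315 bp, stood in for the length of the chromosome, which gave 65 complete windows of 1 Mb. The median window held 12, 10 and 12 peaks in replicates 1, 2 and 3, against a median of 5 in each replicate over the 2433 windows of the other 28 autosomes. The counts started at 0 in every list and ended at 68, 62 and 74. Every replicate drew the same profile, with Pearson's r of 0.989 to 0.991 and Spearman's rho of 0.987 to 0.994 between the window counts of each pair of replicates. These are correlations across 65 windows of 1 chromosome, which share the sequence of each window and are not independent, so they are given without a p-value.

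**Figure D1:**
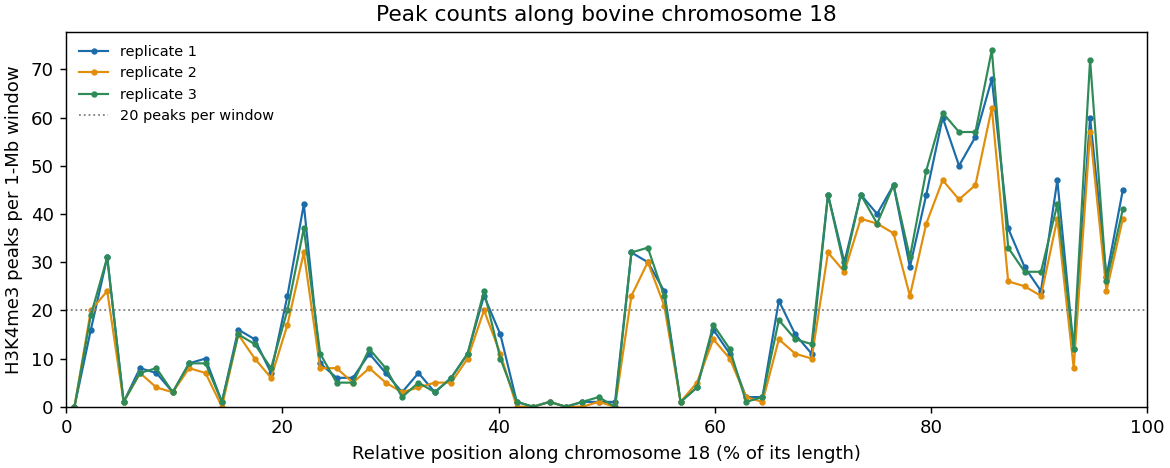
H3K4me3 peaks in each of the 65 windows of 1 Mb (y axis, peaks per window) against the relative position along chromosome 18 (x axis, % of its length), with a line and points for each of the 3 replicates and a dotted line at 20 peaks. The counts stay at or below 2 in the 7 windows from 27 to 34 Mb, at 41.7% to 50.8% of the length. They reach 68, 62 and 74 in the densest window, at about 86% of the length.

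Read from these counts after they had been seen, the chromosome fell into 4 stretches. The first, from 0 to 27 Mb, held 295, 246 and 283 peaks in replicates 1, 2 and 3, or 10.2 ± 0.946 peaks per Mb (SD, n = 3 replicates here and below). The second, from 27 to 34 Mb, was nearly bare with 5, 2 and 5 peaks, or 0.571 ± 0.247 per Mb, although it made up 10.6% of the length. The next, from 34 to 43 Mb, returned to 122, 107 and 125 peaks, or 13.1 ± 1.07 per Mb. From 43 Mb to the end, a length of 22.99 Mb, the distal stretch held 893, 756 and 910 peaks, or 37.1 ± 3.67 per Mb. It thus took 67.9%, 68.0% and 68.8% of the peaks of chromosome 18 in 34.8% of its length. Peaks covered 94.1, 71.1 and 80.1 kb per Mb of it. Neighbouring peaks in it were separated by a median of 11084.5, 13622 and 10630 bp, against 28751, 38730 and 29403 bp in the first 27 Mb.

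Without its distal stretch, chromosome 18 held 9.81, 8.26 and 9.60 peaks per Mb, against 19.9, 16.8 and 20.05 with it. The median of the other autosomes, each taken whole, was 8.26, 6.92 and 8.15 peaks per Mb. The rest of chromosome 18 would have placed 8 of 29 in replicate 1 and 9 of 29 in replicates 2 and 3. Outside its distal stretch, the chromosome was thus somewhat above that median and well below its own whole.

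The 5 densest windows all belonged to the distal stretch. The window from 56 to 57 Mb held 68, 62 and 74 peaks (68 ± 6), which covered 180.8, 132.1 and 153.0 kb of it. The window from 62 to 63 Mb followed with 60, 57 and 72 peaks (63 ± 7.94). The next were 53 to 54 Mb with 60, 47 and 61 peaks, 55 to 56 Mb with 56, 46 and 57 peaks, and 54 to 55 Mb with 50, 43 and 57 peaks. Replicate 2, the list with the fewest peaks, was the lowest in all 5, and the order of the 5 was the same in each list apart from ties in replicates 1 and 3. Outside the distal stretch the densest window, from 14 to 15 Mb, reached 42, 32 and 37 peaks (37 ± 5).

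Dense windows also followed one another. A window with at least 20 peaks was found 26, 25 and 25 times on chromosome 18, in 40.0%, 38.5% and 38.5% of its windows, against 9.95%, 6.62% and 9.54% of the windows of the other autosomes in replicates 1, 2 and 3. With at least 40 peaks, 13, 5 and 11 windows remained, or 20%, 7.69% and 16.9%, against 1.93%, 1.19% and 1.85% elsewhere. The 15 windows from 46 to 61 Mb each held at least 20 peaks in all 3 replicates. The longest such run on another autosome was 9 windows, on chromosome 19, and the median of the others was 2. These 15 Mb carried 648, 545 and 661 peaks, or 49.3%, 49.1% and 50.0% of all peaks of chromosome 18, in 22.7% of its length.

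At the other end, the windows from 0 to 1 Mb, from 28 to 29 Mb and from 30 to 31 Mb had no peak in any replicate. The window from 33 to 34 Mb held 1 peak in replicate 1 alone, and the windows from 9 to 10, 27 to 28 and 31 to 32 Mb each held 1 peak in replicate 1, none in replicate 2 and 1 in replicate 3. Empty windows numbered 3, 7 and 4, which were 4.62%, 10.8% and 6.15% of the windows of chromosome 18, against 11.1%, 12.2% and 11.7% elsewhere. In replicate 2 the share was thus close to that of the other autosomes, and in replicates 1 and 3 it was lower. An empty window can be read only as one in which no peak was called in that library, whose depth the lists do not give.

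The few peaks between 27 and 34 Mb were mostly weak, and some of them recurred. A peak was called in all 3 replicates at chr18:29862445-29863364 (coordinates of replicate 1, UMD 3.1.1), with scores of 62.24, 53.24 and 211.57. Another stood at chr18:32951345-32953621 in replicate 1, with scores of 567.86, 220.86 and 623.89 in the 3 lists, near the middle of the lists of replicates 1 and 3 at percentiles of 47.4 and 49.8 and lower, at 34.0, in replicate 2. A score is the value that the peak caller gave to a peak, on a scale that is not stated and that may be a significance, which grows with depth and width, and a percentile places it among all the peaks of the same list. Strong and weak stand here for a high and a low score only. The peaks near 27.8 Mb of replicates 1 and 3 had scores of 50.65 and 101.94, and the remaining 4 calls of this stretch had scores of 51.69 to 129.36. Such bare stretches also occurred elsewhere in the genome. The 7 windows in a row with at most 2 peaks in every replicate were matched or exceeded on 8 of the other 28 autosomes, with a median of 5 and up to 16 on chromosome 1. On the dense chromosomes 19, 23 and 25, the longest such runs were shorter, with 5, 2 and 2 windows.

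Among the autosomes, chromosome 18 was close to chromosome 19. Its density of 19.9, 16.8 and 20.05 peaks per Mb (18.9 ± 1.82) was 2.44 ± 0.0237 times the median of the other 28 autosomes in the same list. It placed first in replicate 1, where chromosome 19 had 19.7, 25 had 18.1 and 23 had 14.4 peaks per Mb. It was second to chromosome 19 in replicate 2, at 16.83 against 16.95, and first again in replicate 3, at 20.05 against 20.03. The order of chromosomes 18 and 19 thus changed with the replicate. Chromosome 19 was the higher one by the length that peaks covered: it had 51.02, 38.0 and 42.5 kb per Mb under peaks, and chromosome 18 had 48.2, 36.3 and 40.9 kb per Mb, the second value of the 29 in each list. Relative to the median of the other autosomes, coverage was raised by the same factor as density, 2.44 ± 0.0350. These densities rest on the last peak in place of the end of the assembled chromosome.

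**Figure D2:**
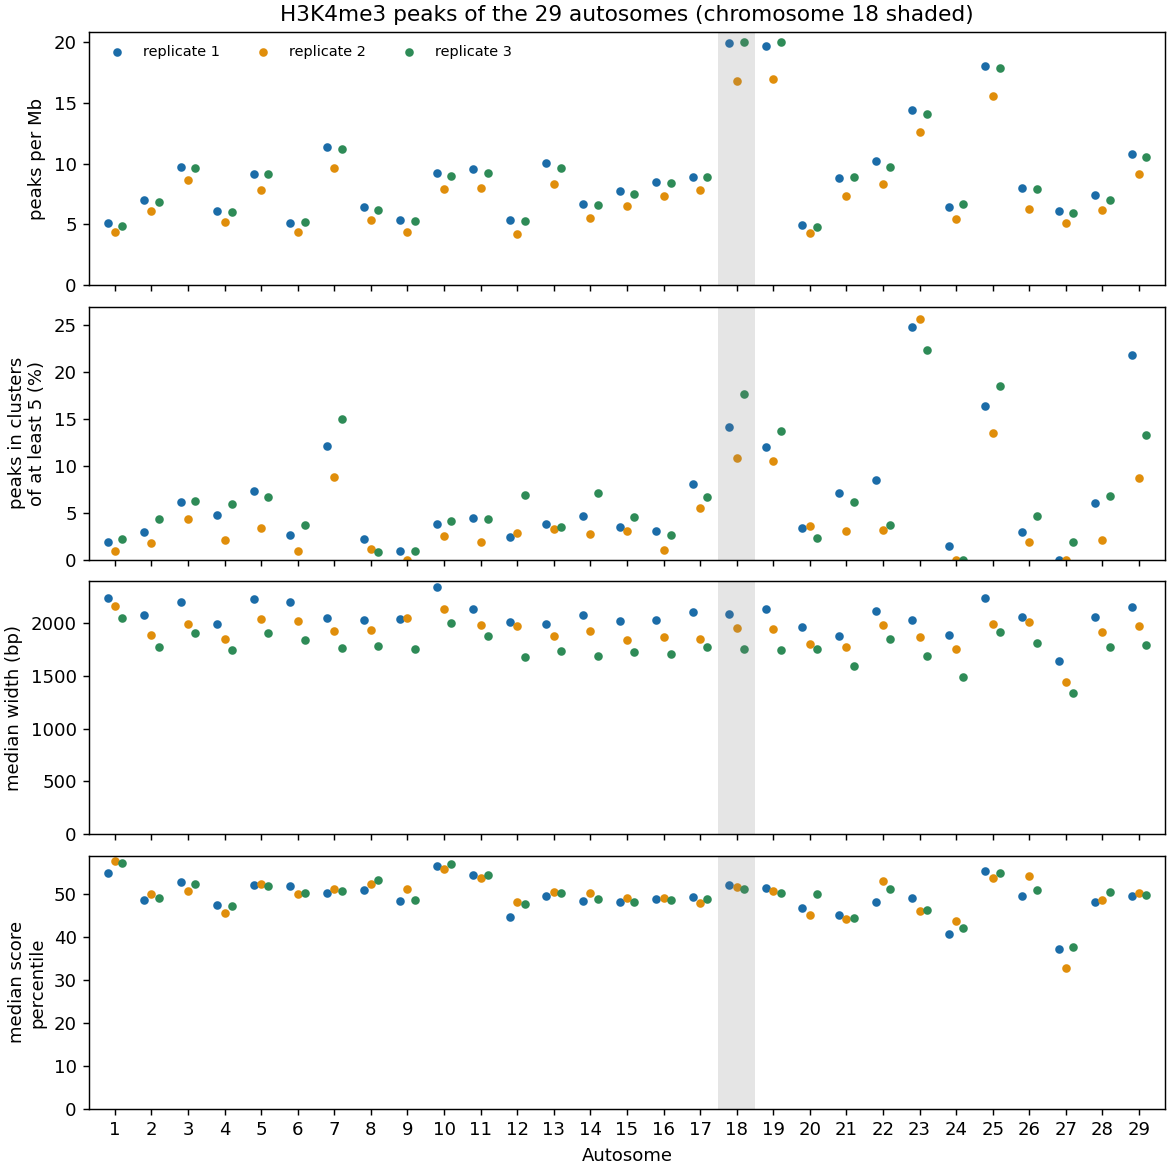
From top to bottom, peaks per Mb, the share of peaks in clusters of at least 5 (%), the median peak width (bp) and the median score percentile of each of the 29 autosomes (x axis), with a point for each of the 3 replicates and chromosome 18 shaded. Chromosomes 18, 19 and 25 stand above the others in density, whereas the width and the score percentile of chromosome 18 lie among those of the other autosomes.

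Within chromosome 18 the peaks were no more unequally spread over windows than on other autosomes. The 7 densest of its 65 windows held 30.7%, 31.3% and 32.8% of its peaks. The median share that the same fraction of windows held on the other autosomes was 34.0%, 33.4% and 34.7%. The coefficient of variation of the window counts, 0.943, 0.962 and 0.981, placed 18, 16 and 15 of 29. Its dense windows lay mostly toward its end. Cut into 3 equal parts, its last part held 66.2%, 66.8% and 67.4% of its peaks, whereas the last parts of the other autosomes held a median of 40.9%, 39.1% and 40.3%. Chromosome 29 was more lopsided, with 70.8%, 70.0% and 71.2% in its last part, and chromosome 17 had 67.9%, 66.78% and 67.8%, so that chromosome 18 placed 3, 2 and 3 of 29.

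Neighbouring peaks were close to each other. The median gap was 14133, 18019.5 and 13644.5 bp, against 33041, 41365 and 32497 bp over all gaps of the other autosomes. It was the shortest of the 29 autosomes in replicates 1 and 3, and 2 autosomes had a shorter one in replicate 2. The excess of short gaps was clear at distances of a few kb and above, and smaller below. Gaps under 3 kb made up 17.6%, 15.4% and 21.1% of the gaps of chromosome 18 and 14.2%, 12.2% and 15.9% of the gaps elsewhere.

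**Figure D3:**
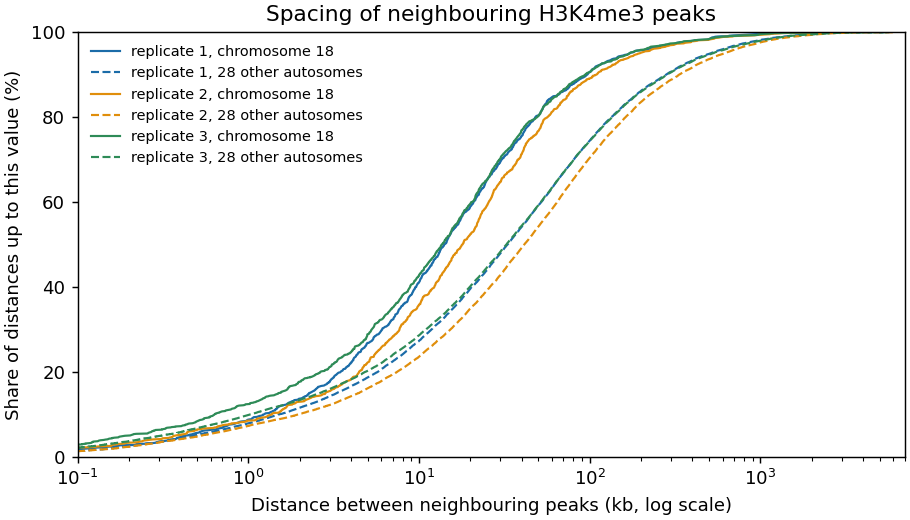
Share of the distances between neighbouring peaks (y axis, %) up to the value on the x axis (kb, log scale, from 0.1 kb), with a solid line for chromosome 18 and a dashed line for the 28 other autosomes in each of the 3 replicates. The solid lines rise earlier, with medians of 14133, 18019.5 and 13644.5 bp against 33041, 41365 and 32497 bp.

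Long peak-free stretches were fewer than elsewhere but not absent. Gaps of at least 500 kb numbered 22, 20 and 22, and took 28.04%, 31.6% and 29.99% of the length, the second lowest share after chromosome 19 with 16.5%, 18.46% and 16.7%. The median of the other autosomes was 45.1%, 48.4% and 45.7%. The longest gap between peaks ran over 2085102 bp at chr18:27777343-29862444 in replicate 1, over 3276498 bp at chr18:26586034-29862531 in replicate 2, and over 2117120 bp at chr18:29863594-31980713 in replicate 3. All 3 touched the sparse stretch, and the longest was that of replicate 2, in which no peak was called near 27.8 Mb. The mean of 2492907 bp rose to 5282211 bp when peaks with a score under 100 were left out. The longest gaps of the other autosomes had medians of 3245914, 3266104 and 3008780 bp.

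Over the 3 lists joined, the longest stretch without any peak was chr18:27777343-29861781, of 2084439 bp. It was followed by chr18:29863594-31453017 (1589424 bp), chr18:26586468-27776612 (1190145 bp), chr18:37117574-38176202 (1058629 bp) and chr18:32954884-33979483 (1024600 bp). Of these 5, all but the one from 37.1 to 38.2 Mb lay in or at the edge of the sparse stretch. The longest such stretch of the other autosomes had a median of 2491420 bp and ranged from 1342100 bp to 5707810 bp. Between the start of the coordinates and the first peak, at 1022085, 1022620 and 1022355 bp in replicates 1, 2 and 3, chromosome 18 also had no peak.

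Peaks gathered in clusters, defined here as at least 5 peaks with at most 10 kb between neighbours. Chromosome 18 had 28, 19 and 35 of them, with 186, 120 and 233 peaks. These were 14.1%, 10.8% and 17.6% of its peaks, against 6.95%, 4.81% and 7.10% of the peaks of the other autosomes. Its share placed 4, 3 and 3 of the 29 autosomes, and the highest was that of chromosome 23, with 24.8%, 25.7% and 22.3%. The largest cluster of chromosome 18 had 12, 13 and 11 peaks in the 3 lists, against 22, 22 and 23 in the largest elsewhere. The latter is the maximum over 221, 128 and 218 clusters, so it does not show that the clusters of chromosome 18 were smaller. By the share of its peaks, chromosome 18 was thus rich in clusters. The share depends on the distance allowed, with a mean of 14.2% at 10 kb, 5.09% at 5 kb and 37.5% at 20 kb.

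With the overlapping peaks of all replicates merged into regions, 37 clusters held 253 of the 1419 regions of chromosome 18, or 17.8%, and 34 of the 37 lay in the distal stretch. The cluster with the most regions by count and span was chr18:62324460-62407631, where 13 regions in 83.2 kb held 12, 13 and 12 peaks and 12 of the regions had a peak in all 3 replicates. Peaks covered 38.7, 35.4 and 36.9 kb of it. The cluster at chr18:56959396-57041313 also had 13 regions, 9 of them with a peak in all 3 replicates, and 24.9, 17.6 and 19.02 kb under peaks. Next came chr18:53464897-53534802, with 12 regions in 69.9 kb, 10 of them found in all 3 replicates. The clusters chr18:55569036-55627284 and chr18:62695335-62742411 had 10 regions each, of which 6 and 8 were found in all 3 replicates. Most members of these largest clusters were thus called in each pool. The same held for most regions in general, with 70.8% of all regions of chromosome 18 and 67.8% of those elsewhere. Among the clusters named here, the one at chr18:55569036-55627284 had the lowest share of regions found in all 3 replicates.

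In width, the peaks of chromosome 18 were like those of other autosomes. The median width was 2088, 1958 and 1758 bp, with lower quartiles of 1369, 1283.5 and 1085.5 bp and upper quartiles of 2993, 2763.5 and 2651 bp. The peaks of the other autosomes had medians of 2099, 1944 and 1793 bp. The difference of chromosome 18 minus the others was -11, 14 and -35 bp, a mean of -10.7 ± 24.5 bp, with 1 of 3 replicates in the other direction (exact sign-flip permutation test over replicates, two-sided, p = 0.75, n = 3). With 3 replicates, no such exact test can go below p = 0.25, so that none of those given here can reach 0.05. Replicate 3 had the narrowest peaks on chromosome 18 and elsewhere alike.

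Wide peaks were slightly less frequent than elsewhere. Peaks of at least 5 kb numbered 76, 29 and 39 on chromosome 18, or 5.78%, 2.61% and 2.95%, against 6.24%, 3.48% and 3.57% of the peaks of the other autosomes. The difference of chromosome 18 minus the others was -0.463, -0.868 and -0.618 percentage points, lower in 3 of 3 replicates. The 95% Wilson intervals of the 3 shares on chromosome 18 ran from 4.64% to 7.17%, 1.82% to 3.72% and 2.16% to 4.004%, and each included the value elsewhere. Such intervals cover counting error only.

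Against the most similar chromosomes, the median width of chromosome 18 differed by 68.2 ± 16.3 bp from that of chromosome 23 and by -115 ± 65.6 bp from that of chromosome 25, in the same direction in 3 of 3 replicates each (exact sign-flip permutation test, two-sided, p = 0.25, n = 3). Against chromosome 19 the difference of -7.83 bp was smaller than its spread of 37.8 bp (SD) over replicates.

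The score percentiles of chromosome 18 were a little above those elsewhere. Their medians were 52.0, 51.5 and 50.99, against 50.1, 50.3 and 50.2 for the peaks of the other autosomes. The difference was 1.955, 1.26 and 0.775 percentile points, a mean of 1.33 ± 0.593 and positive in 3 of 3 replicates (exact sign-flip permutation test, two-sided, p = 0.25, n = 3). It was lost when peaks with a score under 100 were left out, where the mean was -0.122. Chromosome 18 placed 7, 9 and 9 of 29 by its median percentile. Among the dense chromosomes, it differed by 0.887 ± 0.124 points from chromosome 19, by 4.46 ± 1.21 from 23 and by -2.97 ± 0.819 from 25, each in the same direction in 3 of 3 replicates (exact sign-flip permutation test, two-sided, p = 0.25, n = 3).

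The upper and the lower part of the score range moved in opposite directions. The lower quartile of the percentile was 26.2, 27.8 and 26.1, against 24.9 elsewhere in each list, and the upper quartile was 74.5, 73.9 and 74.1, against 75.5, 75.5 and 75.6. Many of the peaks with the highest scores share a score near 3100, and peaks at or above it made up 16.5%, 4.86% and 14.1% of those on chromosome 18, against 18.6%, 6.96% and 16.3% elsewhere. This share differed by -2.11 ± 0.0130 percentage points, lower in 3 of 3 replicates (exact sign-flip permutation test, two-sided, p = 0.25, n = 3). Peaks with a score under 100 made up 17.9%, 16.2% and 17.99%, against 18.4%, 19.1% and 19.1% elsewhere. Chromosome 18 thus had a lower share of the strongest and of the weakest peaks in each list. The 95% Wilson interval included the value elsewhere for the weakest in replicates 1 and 3 (15.9% to 20.03% and 16.0% to 20.2%). For the strongest it did so in replicate 1 (14.6% to 18.605%). These intervals cover counting error only and are no test, as peaks of 1 list are not replicates. Chromosome 25 was also lower in both, with mean shares of 12.4% and 16.2%. The means were 11.8% and 17.4% on chromosome 18, and 13.9% and 18.9% elsewhere. By its means, chromosome 23 was lower only in the strongest (11.1%, weakest 19.9%), and chromosome 19 only in the weakest (17.6%, strongest 15.4%). Width and score rose together over the peaks of chromosome 18, with Spearman's rho of 0.831, 0.849 and 0.883, close to the 0.829, 0.867 and 0.884 of the other autosomes. These are correlations across peaks of 1 library, with no p-value.

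The score percentile of peaks also differed along chromosome 18. In windows with under 5 peaks, the median score percentile was 27.3 ± 5.51, from 25, 21 and 23 peaks in the 3 lists, against 44.6 ± 1.83 for windows of that kind elsewhere. In windows with 5 to 19 peaks it was 54.5 ± 1.06, and in windows with 20 to 39 peaks 54.6 ± 0.649, against 51.5 ± 0.634 in the latter elsewhere. In windows with at least 40 peaks it fell to 49.1, 42.8 and 46.1, whereas windows of that kind on the other autosomes had 53.4, 52.8 and 51.3. The difference in these densest windows was -6.51 ± 3.03 percentile points, negative in 3 of 3 replicates. It was examined only after the window counts had been seen, in windows chosen by those counts. It is therefore described without a test.

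Peaks in the densest windows of chromosome 18 were also narrower than in such windows elsewhere, with median widths of 2050.5, 1761 and 1642 bp against 2216, 2043 and 1843 bp. Those values rest on 13, 5 and 11 windows with 646, 255 and 587 peaks. Among the 25 windows with a mean of at least 20 peaks, the one from 57 to 58 Mb stood lowest, with median percentiles of 33.9, 36.9 and 34.9. The window from 36 to 37 Mb stood highest, with 73.2, 73.6 and 77.8. Both windows were picked after their values had been seen.

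**Figure D4:**
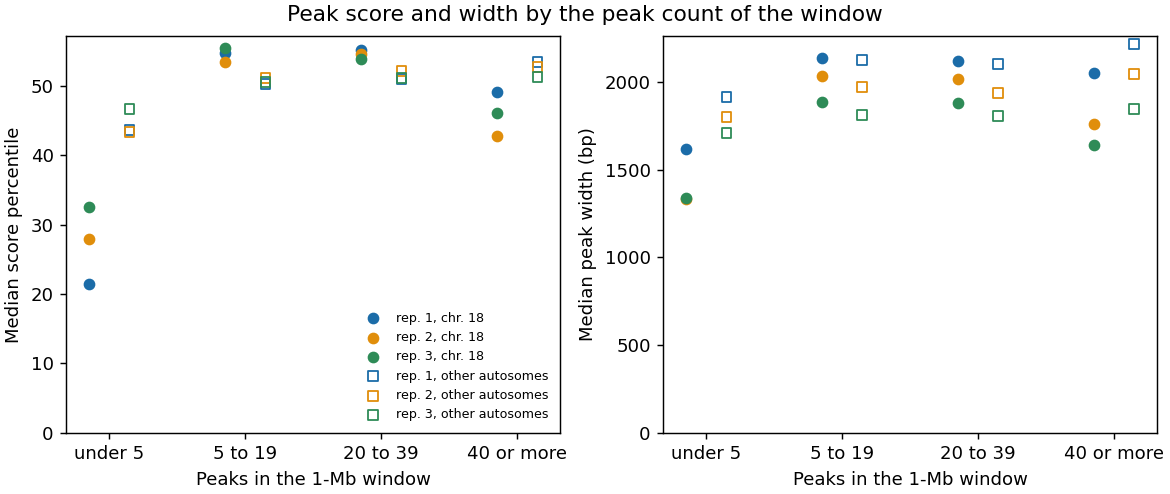
Median score percentile (left) and median peak width in bp (right) of the peaks in 1-Mb windows grouped by their number of peaks (x axis), with filled circles for chromosome 18 and open squares for the 28 other autosomes in each of the 3 replicates. In windows with at least 40 peaks, the circles at 49.1, 42.8 and 46.1 lie below the squares at 53.4, 52.8 and 51.3, and in windows with 5 to 39 peaks they lie above the squares.

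The stretches also differed. The 9 Mb from 34 to 43 Mb had median percentiles of 58.3, 59.1 and 56.1 and median widths of 2368.5, 2053 and 2144 bp. The distal stretch had 52.0, 51.5 and 50.5, and 2109, 1908.5 and 1735.5 bp. The first 27 Mb, also of moderate density, had 47.9, 48.2 and 50.1, and 1940, 1935 and 1676 bp. The stretch from 34 to 43 Mb was thus above both others in percentile and width in each list, whereas the first 27 Mb was below the distal stretch in percentile. Density and percentile therefore did not follow one order over the 3 stretches.

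Peaks of chromosome 18 recurred between the pools about as often as those of other autosomes. A peak of both other replicates overlapped 77.3% of the peaks of replicate 1, 94.8% of replicate 2 and 80.6% of replicate 3, against 76.1%, 91.7% and 79.6% elsewhere. The difference was 1.74 ± 1.19 percentage points, positive in 3 of 3 replicates. Each share draws on all 3 lists, so the 3 differences are not independent and are given without a p-value. Their mean turned to -0.197 when at least 50% of each peak had to be covered in place of 1 bp, and was 0.481 without peaks of a score under 100 and 0.224 against chromosomes 19, 23 and 25 alone.

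Sharing depended on the score. Of the peaks with a percentile up to 25, 19.6% of 311, 77.4% of 239 and 30.4% of 316 in replicates 1, 2 and 3 had an overlapping peak in each of the other lists, against 21.1%, 68.9% and 29.8% elsewhere. The shares rose to 84.3%, 98.7% and 89.0% for percentiles from 25 to 50, against 83.5%, 97.97% and 88.8% elsewhere. Above the median of the list, every peak of chromosome 18 was overlapped in both others, as were at least 99.95% of those elsewhere. Sharing by score was thus near that of the other autosomes, apart from the lowest scores of replicate 2.

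Of the 1419 merged regions, 1004 had a peak in all 3 replicates, or 70.8% against 67.8% of the regions elsewhere. These made 15.2 regions per Mb on chromosome 18 and 6.23 per Mb on the other autosomes. Of the remaining regions, 155 had a peak in 2 replicates and 260 in 1, or 10.9% and 18.3%, against 11.5% and 20.6% elsewhere. A region missing from 1 list only was most often missing from replicate 2, with 125 such regions, against 9 for replicate 1 and 21 for replicate 3. The other autosomes leaned the same way, with 1921 against 249 and 422 such regions. In 891 of the 1004 regions, or 88.7%, each list had a single peak, against 91.2% elsewhere, and 111 were split into different numbers of peaks in different lists, or 11.1% against 8.49%.

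In the 891 regions with a single peak in each list, the position of the peak moved little. The start differed by a median of 193, 157 and 141 bp between replicates 1 and 2, 1 and 3, and 2 and 3, and the end by 194, 157 and 152 bp. The order of the widths was kept, with Spearman's rho of 0.908, 0.919 and 0.927, as was that of the scores, with 0.952, 0.963 and 0.959. These shifts were small beside the median width of the peaks.

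Few regions were wide in each pool. Of the 1004 shared regions, 37 were covered over at least 5 kb in each replicate, or 3.69% against 4.09% of the 15227 shared regions elsewhere. Against 23 of those 15227, a single one of the 1004 was covered over at least 10 kb, too few for a comparison. That one was chr18:61142144-61160036, with 17858, 14380 and 15415 bp under peaks (15884 ± 1786 bp) and a score of 3100 in each list. The number of calls within it was 1, 2 and 3 in the 3 lists. In each list it had more bp under peaks than any of the next 4 regions.

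The next regions by covered length were chr18:48666346-48678815, with 12181, 9212 and 10674 bp, and chr18:36177669-36189648, with 11977, 4368 and 11178 bp. The latter was wide but weak, with scores of 406.19, 114.50 and 398.92 and percentiles of 42.2, 21.7 and 42.8, and its SD of 4182 bp came from replicate 2. The regions chr18:2830203-2840554, with 10352, 7281 and 9340 bp, and chr18:52918667-52928107, with 9441, 9118 and 7788 bp, followed. The means of these 4 were 10689 ± 1485, 9174 ± 4182, 8991 ± 1565 and 8782 ± 876 bp, and their replicate values overlapped between neighbours in this order. The regions were chosen for their width, so these values are a description.

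**Figure D5:**
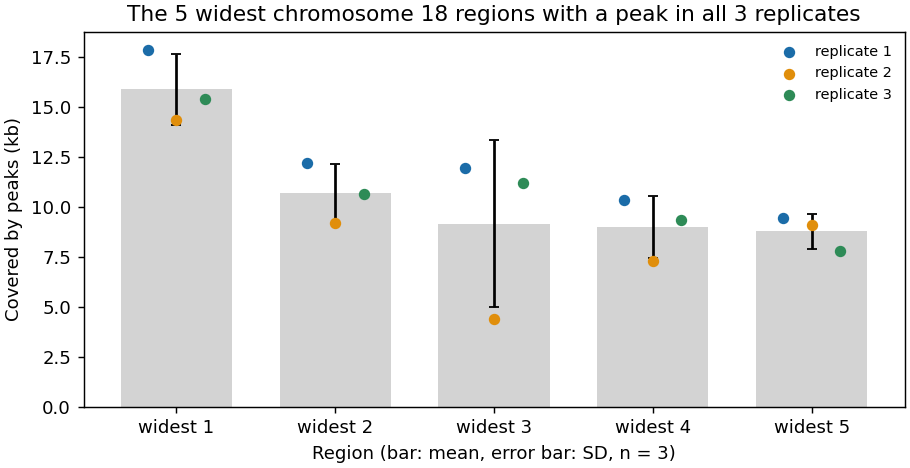
Length under peaks (y axis, kb) in the 5 widest regions of chromosome 18 with a peak in all 3 replicates (x axis, in order of their mean), with a point for each replicate, a bar for the mean and an error bar for the SD. The first region, at 15884 bp, stands above the other 4, and replicate 2 stands apart at 4368 bp in the third.

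By score, the highest mean percentiles belonged to chr18:60966941-60971130, with scores of 3207.07, 2853.49 and 3100, and to chr18:56667769-56674750, with 3100, 3161.19 and 3100. The region chr18:35470428-35479298 was both strong, with 3100, 3151.33 and 3100, and wide, with 8871, 7611 and 8056 bp under peaks. The other two were chr18:56402661-56407511 and chr18:58424484-58428923. Because the score has an upper tie near 3100, the order among these regions carries little. Of the shared regions of chromosome 18, 54 reached 3100 in all 3 lists, or 5.38% against 7.80% elsewhere.

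The weakest regions that still had a peak in each list were chr18:52001068-52002393, with scores of 83.02, 58.36 and 51.43, then chr18:12430758-12432115, chr18:2490964-2492282, chr18:23828151-23829504 and chr18:54725681-54726885. Their mean percentiles ran from 6.71 to 8.59 and their covered lengths from 560 to 1326 bp. These regions were picked among those with a peak in each list, so they show only that some weak regions recurred.

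Peaks found in 1 list alone were weak and narrow. They numbered 143, 21 and 96, or 10.9%, 1.89% and 7.26% of the peaks of chromosome 18, against 11.9%, 3.91% and 7.70% elsewhere. Their median scores were 69.7, 61.0 and 64.4, and their median widths 1074, 753 and 751 bp. A score under 100 was held by 81.1%, 90.5% and 86.5% of them. The strongest of them were chr18:25091387-25092275 in replicate 1 (score 263.08, 889 bp), chr18:48716026-48716317 in replicate 2 (182.48, 292 bp) and chr18:62516569-62517720 in replicate 3 (161.90, 1152 bp). In the distal stretch lay 69.9%, 47.6% and 75% of them, the second value resting on 21 peaks, beside 67.9%, 68.0% and 68.8% of all peaks of chromosome 18.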

How the data were processed

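The 3 lists of H3K4me3 peaks, 1 per pool of bovine blastocysts, were used as deposited. Per the study's methods, single-end reads of 51 bases were mapped to UMD 3.1.1 (bosTau8), scaffolds left out, Picard removed duplicates, and MACS called the peaks of each pool relative to the input of that pool. The submitters' processing notes name Bowtie 1.2.3. The version and threshold of MACS are not given in the sources used here. The authors deposited the start, end and score of each peak. The lowest score was 50.0, and the scale of the score is not stated, so scores were ranked within each list and never averaged over lists.

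Counts, gaps, clusters and overlaps of at least 1 bp came from scripts in Python 3.11.15 (SciPy 1.17.1, pandas 2.3.3 and NumPy 2.4.6), with plots by Matplotlib 3.10.9. A peak was counted in the 1-Mb window that held its centre. Merged regions are the union of overlapping peaks of the 3 lists. The scripts were tested on simulated peaks. Values over replicates are means ± SD. A sign-flip p-value is the share of sign patterns of the 3 differences that give a mean at least as extreme. It is 0.25 whenever all 3 signs agree, whatever the spread. Some of the pools share an IVF procedure, so they are not fully independent. The regions named are the 5 densest and sparsest windows, the 5 widest, strongest and weakest shared regions, the 5 longest peak-free stretches, the 5 largest clusters and the strongest replicate-only peak per list. A few others are named as chosen after their values were seen. The chromosome, measures and rules were chosen with earlier results of these data known. Read counts are not part of the lists, which leaves the depth behind a peak unknown. Chromosome lengths, gene models and sequence of UMD 3.1.1, the input libraries on their own and chromosome X were not analysed here. Alternatives covered a score minimum, equal peak numbers, merging of close peaks, window size and offset, the cluster distance, the length used, the overlap and leaving out each replicate.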

Additional observations from a re-analysis of the deposited data

How the results depend on the processing

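Of 59 values recomputed under an alternative other than leaving out a replicate, 34 counted as unchanged, 21 moved further and 4 turned direction. Unchanged stands for a move below the spread over replicates or, for differences between chromosomes, a kept direction. The count of shared regions, 1004, has neither and was judged by its ratio to the main value. It ran from 876 to 966 and counted as unchanged. The density of 18.9 peaks per Mb became 15.6 with scores of at least 100, 17.1 with equal peak numbers and 17.1 with close peaks merged. Its ratio of 2.44 to the other autosomes became 2.51, 2.46 and 2.40 under these, and 2.47 with the length taken from the first to the last peak. The window median of 11.3 became 9.67, 10 and 10, and 13.3 per Mb with 500-kb windows. The share of peaks in clusters, 14.2%, became 10.4% with scores of at least 100, 5.09% at 5 kb and 37.5% at 20 kb. The longest gap of 2492907 bp became 5282211 bp with scores of at least 100 and 4243012 bp with equal peak numbers. The share in the 7 densest windows, 31.6%, became 30.4% with shifted windows and 34.0% with 500-kb windows. The distal share of 68.2% became 69.0% with scores of at least 100, 66.8% in the last 1 of 3 equal parts and 64.8% in the last 20 Mb. The score difference of 1.33 turned to -0.122 with scores of at least 100, the width difference of -10.7 bp to 41 bp with close peaks merged and to 13.25 bp against the median of the autosomes, and the sharing difference of 1.74 to -0.197 with 50% overlap. The cause was not tested.

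Leaving out each replicate gave width differences from -23 to 1.5 bp, and turned no other difference. The lower score percentile of windows with at least 40 peaks ran from -7.58 to -4.78 without each replicate, and from -9.60 to -3.85 under the other alternatives, all chosen after the data had been seen, as were those of the distal share. For H3K4me3 against input, no paired analysis was possible because the input libraries, which share the replicate numbers, gave no values here. Chromosome 18 and the other autosomes were compared within the same list, so those differences were already paired by replicate. The lists hold no reads, so weak peaks missing from replicate 2 can be read only as not called in that list. Why they were not called was not tested.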
